A study of Mus musculus with 3 samples.

Results

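The transcripts examined here encode the D cyclins Ccnd1, Ccnd2 and Ccnd3, the transcription factor Myc, the CDK inhibitors Cdkn1a, Cdkn1b and Cdkn2c, the p53 regulator Mdm2 and the G cyclins Ccng1 and Ccng2. They were chosen by name, as every non-control probe whose gene name on the array was one of these 10, which gave 21 of the 56605 probes and 10 of the 36870 gene names. The cells were RAW264.7, a mouse macrophage line that grows in culture without added growth factors and is transformed, so its cell cycle is not that of a resting tissue macrophage. A first group received LPS, the bacterial lipopolysaccharide that activates TLR4. The other groups received the Lactiplantibacillus plantarum strain LOC1 or LOC3, isolated from tea leaves, for 12 h and then LPS, and RNA was taken 3 h after LPS in every group. The design text gives these 12 h, the methods give a longer stimulation, and the LPS dose in the methods is not that of the results, so neither dose is given here. Each group was 1 array, so no difference has a biological replicate, no test between groups was possible, and LOC1 and LOC3 were both compared with the same LPS array.

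Passage from G1 into S phase is started by D cyclins, which bind CDK4 and CDK6 so that the retinoblastoma protein is phosphorylated and E2F factors are released. Myc promotes growth and the supply of D cyclins, whereas p21 (Cdkn1a), p27 (Cdkn1b) and p18 (Cdkn2c) block the cyclin-dependent kinases. p53 induces Cdkn1a, Mdm2 and Ccng1, and Mdm2 in turn marks p53 for degradation. In macrophages, activation through TLR4 is known to slow growth that depends on D cyclins while p21 rises.

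Since Cdkn1a was the member whose probes differed most, the sequence before each of its starts is shown. RefSeq gives 2 starts on the plus strand of chromosome 17 (GRCm38.p6), 2790 bases apart. The 250 bases before each start follow, the upstream one at chr17:29090729-29090978 and the downstream one at chr17:29093519-29093768, with a match to the p53 response element in capitals.
Cdkn1a upstream start: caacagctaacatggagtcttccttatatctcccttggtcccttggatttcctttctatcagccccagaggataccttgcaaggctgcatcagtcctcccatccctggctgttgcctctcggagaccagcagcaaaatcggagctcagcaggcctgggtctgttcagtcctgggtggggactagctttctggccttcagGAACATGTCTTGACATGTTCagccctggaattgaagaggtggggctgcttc
Cdkn1a downstream start: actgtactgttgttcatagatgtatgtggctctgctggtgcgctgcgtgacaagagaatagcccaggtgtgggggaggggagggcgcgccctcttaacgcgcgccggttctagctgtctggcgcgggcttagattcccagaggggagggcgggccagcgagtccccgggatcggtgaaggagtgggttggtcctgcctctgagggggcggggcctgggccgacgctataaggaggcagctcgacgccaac
The match of 20 bases lay between 51 and 32 bases before the upstream start and none lay before the downstream start. The search took adjacent copies of the p53 site on both strands with at most 1 letter off, which 15 of 32851 RefSeq promoter windows held, or 0.0457%. Promoter windows were listed for 7 of the 10 members, 10 windows in all, and this was the only p53 match among them, while CACGTG, the letters bound by Myc, was in 0 of the 10 and in 6.02% of all windows. A match is a description of letters, and binding was not measured.

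For Myc, Mdm2 and Ccng2, one probe read a stretch away from the 3′ end of the transcript, and its 60-base sequence is given because it measured the same gene at a second place. The positions are mm9, as in the array files, at chr15:61820925-61820984 for Myc on the plus strand, chr10:117139375-117142253 for Mdm2 on the minus strand, where 60 bases reach over 2879 bases of genome and so cross an exon junction, and chr5:93702442-93702501 for Ccng2 on the plus strand. No capitals are used.
Myc: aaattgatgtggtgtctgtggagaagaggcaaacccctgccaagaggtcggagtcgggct
Mdm2: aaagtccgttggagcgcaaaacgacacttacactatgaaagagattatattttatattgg
Ccng2: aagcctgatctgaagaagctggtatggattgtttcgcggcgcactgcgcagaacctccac
None of the 3 shared a stretch with the brightest probe of its gene.

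All 21 probes were well above background on all 3 arrays and none was marked as an outlier. Signals are array intensities, and a difference is taken on the log2 scale after each array was divided by its 75th percentile, which was 555 with LPS alone, 513 after LOC1 and 516 after LOC3. Where a gene had several probes, the brightest stood for it. Probes printed 10 times on each array gave a technical SD of a log2 difference of 0.06 for bright probes, and of 0.29 for LOC1 against LPS and 0.33 for LOC3 against LPS for dim ones. This error is the spread of copies within an array, so it leaves out variation between arrays and between cultures. The values for dim probes rest on only 10 to 12 probes per array. The scanner software's own error of a difference from LPS was larger for the bright probes of the members, about 0.2. Scaling to array medians instead moved the median of all genes from 0.00 and 0.03 to 0.22 with both strains, so the sign of a gene's difference or a list's median nearer to 0 than about that size depends on the scaling. Of the 10 genes, 9 stood on bright probes and Cdkn2c on a dim one. Of the housekeeping genes, Actb differed by 0.03 (LOC1) and 0.08 (LOC3) and Gapdh by 0.26 and 0.31. All 8 macrophage markers were well above background on all 3 arrays, and their summed signal was 447433 under LPS alone, 350387 after LOC1 and 385735 after LOC3. These sums are unscaled, and Lyz2 was the largest part, at 244528 with LPS alone. After scaling, the median log2 difference of the 8 was −0.17 with LOC1 and 0.00 with LOC3, with genes on both sides of 0. Of the other marker lists, 3 of 5 T cell genes were above background on every array, with Cd4 highest at 895, 738 and 757 and Cd3e at 396, 416 and 451, 0 of 3 B cell genes, 0 of 5 epithelial genes, 3 of 4 fibroblast genes with at most 53.9, and 1 of 3 erythroid genes.

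**Figure D1:**
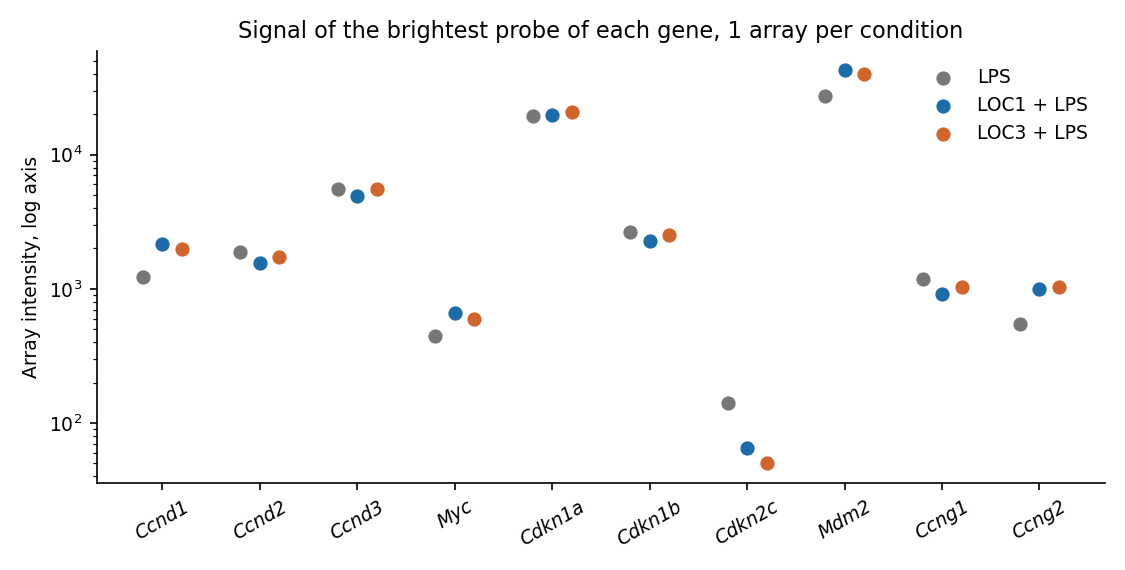
Array intensity (vertical, log axis) of the brightest probe of each of the 10 genes, with 1 point per array in grey for LPS, blue for LOC1 before LPS and orange for LOC3 before LPS. Ccnd1, Myc, Mdm2 and Ccng2 were higher with both strains, and Cdkn2c fell from 140.2 to 64.5 and 50.3. Heights of different genes come from different probes and are not comparable.

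By the brightest probe of each gene, the differences from LPS alone were largest for Ccng2, Ccnd1, Mdm2 and Myc, which read higher after either strain, and for Cdkn2c, which read lower. Of these, Cdkn2c passed 2-fold with both strains and Ccng2 with LOC3, while Ccnd1, Mdm2 and Myc passed it with neither and Myc after LOC3, at 1.45-fold, did not reach 1.5-fold. Over all 21 probes the largest difference was that of a dim second probe of Cdkn1a, at −2.80 and −1.80. At a threshold of 2-fold, 0 of the 10 genes were higher with LOC1, where 2.49% of all 20019 genes compared were, and 1 was lower, where 3.81% were. With LOC3, 1 was higher, against 2.98% of 19790 genes, and 1 was lower, against 3.18%. At 1.5-fold, 4 genes were higher with LOC1, against 7.69% of all genes, and 1 was lower, against 11.4%. With LOC3, 3 were higher at 1.5-fold, against 7.81%, and 1 was lower, against 9.49%. The median difference of the 10 genes was 0.04 for LOC1 and 0.16 for LOC3 (log2), beside 0.00 and 0.03 over all genes. These are counts on single arrays of genes chosen with earlier results known.

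Between the strains, no member reached 2-fold by its brightest probe. With LOC1 against LOC3, 0.800% of 19382 genes passed 2-fold upwards and 1.83% downwards, and 0 of the 10 members were in either set. The differences ran from −0.17 for Ccnd3 and Ccng1 to 0.37 for Cdkn2c. Of the 10, 5 exceeded 2 technical SD, an error that leaves out variation between arrays. The scanner software's own error of these differences was larger for the bright probes, at 0.2, and was 0.26 for Cdkn2c. No member exceeded 2 of the scanner errors. The widest gap of any of the 21 probes was 1.99-fold, by a second probe of Cdkn1a described with that gene.

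**Figure D2:**
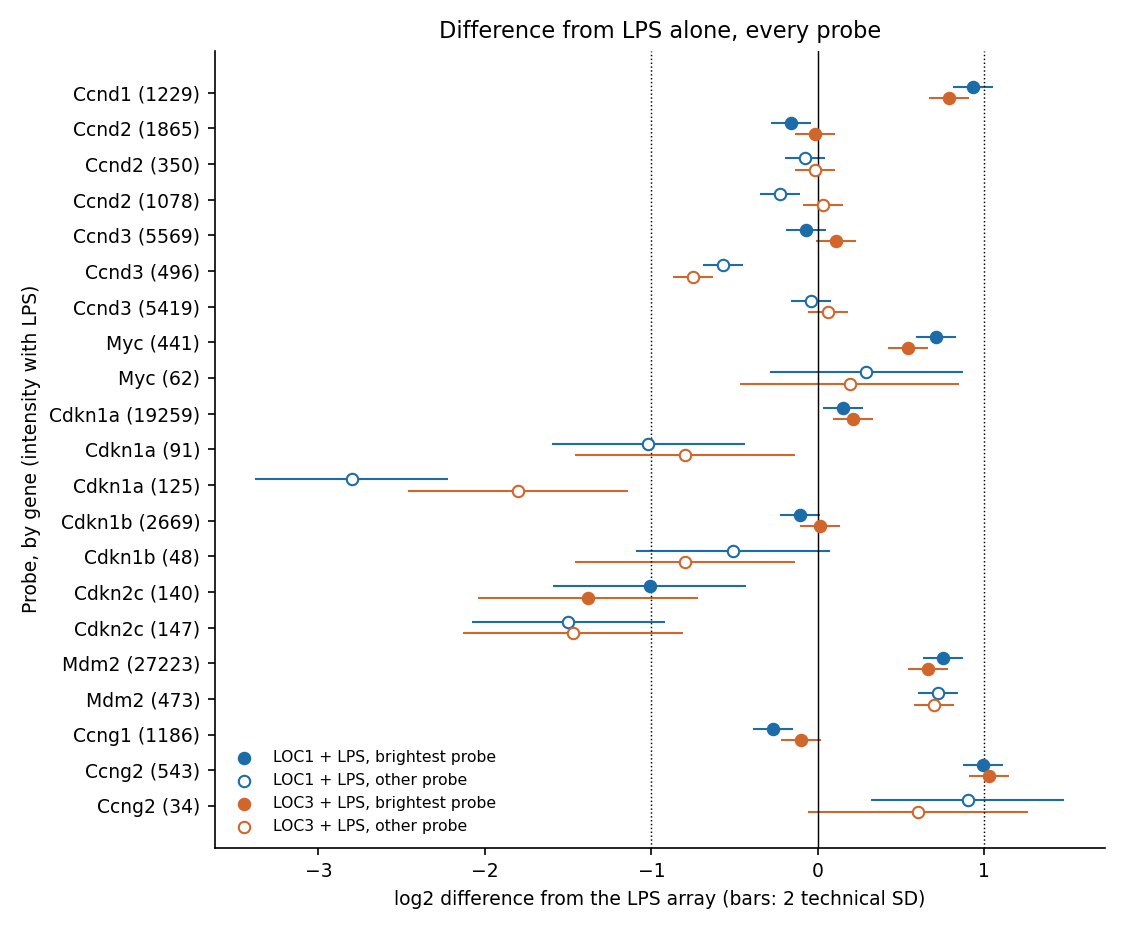
The log2 difference from the LPS array (horizontal) for each of the 21 probes, blue for LOC1 and orange for LOC3, filled for the brightest probe of a gene and open for the others, with the intensity with LPS in brackets. Bars are 2 technical SD of a difference and dotted lines mark 2-fold. The probes of Mdm2 lie between 0.66 and 0.75, while those of Cdkn1a reach from 0.21 to −2.80.

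Ccnd1, the D cyclin most tied to growth factor signals, was read by 1 probe at chr7:152116202-152116261 on the minus strand. Its intensity was 1229 with LPS alone, 2162 after LOC1 and 1971 after LOC3. Both strains lay above LPS alone, by 1.90-fold and 1.72-fold, or 0.93 and 0.79 on the log2 scale with a technical SD of 0.06. The other D cyclins did not share this difference.

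Ccnd2 had 3 probes, and the brightest, at chr6:127080268-127080327 on the minus strand, read 1865 with LPS alone, 1546 after LOC1 and 1712 after LOC3, a log2 difference of −0.16 and −0.02. The other probes gave −0.08 and −0.23 with LOC1 and −0.02 and 0.03 with LOC3. All lay well inside 1.5-fold.

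Ccnd3, the D cyclin abundant in blood cell lineages, also had 3 probes. The brightest, at chr17:47736579-47736638 on the plus strand, read 5569 with LPS alone, 4919 after LOC1 and 5576 after LOC3, or −0.07 and 0.11 on the log2 scale. A probe that shares 53 of its 60 positions with it, with 2 mismatches, read 5419, 4861 and 5257, which is no second measurement of its own. The third probe, designed on another transcript model at chr17:47732637-47732696, was lower with both strains, at 496, 310.3 and 275, or 1.48-fold and 1.68-fold. Its change differed from that of the 3′-end probes by more than the technical error of either.

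Myc, read at chr15:61821417-61821476 on the plus strand, had an intensity of 441 with LPS alone, 665 after LOC1 and 595 after LOC3. It was 1.63-fold higher with LOC1 and 1.45-fold higher with LOC3, or 0.71 and 0.54 on the log2 scale. The second Myc probe, whose sequence is given above, read only 62.0, 70.4 and 65.8, with differences of 0.29 and 0.19 that lie within 1 technical SD for dim probes. The direction was the same at both places, and the size rests on the brighter probe.

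Cdkn1a, which encodes the inhibitor p21, differed little by its 3′-end probe at chr17:29237377-29237436 on the plus strand. That probe read 19259 with LPS alone, 19768 after LOC1 and 20777 after LOC3, or 0.15 and 0.21 on the log2 scale. The probe at chr17:29227986-29228045, at position 62 of a transcript variant that starts further upstream, behaved otherwise. It read 125 with LPS alone, 16.6 after LOC1 and 33.3 after LOC3, which is 6.95-fold and 3.48-fold lower, or −2.80 and −1.80 with technical SDs of 0.29 and 0.33. This was the largest difference of any of the 21 probes with either strain, and the signal with LOC1 was close to the lowest intensity called well above background on that array, 14.5.

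The same probe was the only one of the 21 to differ between the strains by close to 2-fold, being 1.99-fold lower after LOC1 than after LOC3, with a technical SD of 0.32 on the log2 scale. The first base of that variant lay 9512 bases before the end of the 3′-end probe in mm9. In GRCm38.p6 the gene ended 9744 bases after the upstream start and 6954 bases after the downstream start, so the variant is too long to begin at the downstream one. A further probe on another transcript model, at chr17:29235299-29235358, read 91.4, 41.8 and 49.0, or 2.02-fold and 1.74-fold lower with the strains. Both of these probes were dim, and levels of different probes cannot be set against each other, so neither says how much of all Cdkn1a RNA changed.

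Cdkn1b, which encodes p27, read 2669 with LPS alone, 2286 after LOC1 and 2504 after LOC3 at chr6:134875424-134875483 on the plus strand, or −0.11 and 0.01 on the log2 scale. Its dim second probe read 48.2, 31.3 and 25.7, or −0.51 and −0.80, within 2 technical SD with LOC1 and beyond it with LOC3. Any change was small by the bright probe.

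Cdkn2c, which encodes the INK4 inhibitor p18 of CDK4 and CDK6, was the member that fell. At chr4:109333779-109333838 on the minus strand it read 140.2 with LPS alone, 64.5 after LOC1 and 50.3 after LOC3, which is 2.01-fold and 2.59-fold lower, or −1.01 and −1.38. A second probe that shares 40 positions with the first read 147, 48.0 and 49.1, or −1.50 and −1.47. Both probes were dim, their technical SDs were 0.29 and 0.33, and they share bases, so they are not independent. By the first probe the value with LOC1 sits on the 2-fold line, and it was −0.79 with arrays scaled to their medians, −0.88 with quantile normalization and −0.58 with normexp background correction, which also gave −0.77 with LOC3.

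Mdm2, the ubiquitin ligase of p53, was higher with both strains at each of 2 places. At chr10:117126010-117126069 on the minus strand it read 27223 with LPS alone, 42478 after LOC1 and 40096 after LOC3, or 1.69-fold and 1.58-fold higher. The junction probe whose sequence is given above read 473, 723 and 714, or 1.65-fold and 1.62-fold higher. The log2 differences of the probes, 0.75 and 0.72 with LOC1 and 0.66 and 0.70 with LOC3, lay within 1 technical SD of each other.

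Ccng1, a p53-induced cyclin, did not move with Mdm2. It read 1186 with LPS alone, 909 after LOC1 and 1026 after LOC3 at chr11:40562427-40562486 on the minus strand, or −0.27 and −0.10. Ccng2, a G cyclin that is raised in cells leaving the cycle and is a known FOXO target, read 543, 999.8 and 1033 at chr5:93704874-93704933 on the plus strand, or 1.99-fold and 2.04-fold higher. Its second probe, with the sequence given above, read 33.5, 57.9 and 47.3, or 0.90 and 0.60 on the log2 scale. Both places in the transcript were higher with both strains, the dim one by less than 2 technical SD with LOC3. The LOC3 value of the brighter probe fell under 2-fold, at 0.96, with normexp, at 0.98 with the percentile taken over detected probes and at 0.82 with the mean of both probes.

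The deposited log2 ratios set each group against unchallenged macrophages, whose own array was not analysed here. They list 9 of the 21 probes, from 5 of the 10 genes (Ccnd1, Ccnd3, Cdkn1a, Cdkn2c and Mdm2), and leave cells under 2-fold blank. With LPS alone, 3 of the 21 probes were listed at least 2-fold higher, against 7.08% of all probes, and 4 at least 2-fold lower, against 6.31%. With LOC1 the counts were 2 higher, against 7.96%, and 6 lower, against 8.52%. With LOC3 they were 3 higher, against 8.02%, and 6 lower, against 8.88%. All 3 columns share the one unchallenged reference. The shares are over all 56605 probes, of which 51.9% (LPS), 50.4% (LOC1) and 47.8% (LOC3) were well above background, whereas all 21 member probes were. Probes of 1 gene were counted separately, among them both overlapping Cdkn2c probes in each lower count.

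Ccnd1 was 12.9-fold under unchallenged cells with LPS alone, and 6.61-fold and 7.27-fold under with LOC1 and LOC3 before LPS. Cdkn2c was 11.8-fold under with LPS, and 23.2-fold and 29.8-fold under with the strains, and its overlapping probe gave 10.2-fold, 28.2-fold and 27.6-fold. Thus Ccnd1 was nearer to the unchallenged level with the strains than with LPS alone, and Cdkn2c was further from it. Ccnd3 was 3.53-fold under with LPS alone, 3.61-fold after LOC1 and 3.20-fold after LOC3, by its brightest probe. Its probe on another transcript model was 1.68-fold under with LPS alone (rebuilt), 2.43-fold after LOC1 and 2.75-fold after LOC3, further under with the strains.

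Mdm2 was 3.84-fold over unchallenged cells with LPS, and 6.63-fold and 6.23-fold over with LOC1 and LOC3. Cdkn1a, by its 3′-end probe, was 3.50-fold over with LPS alone, 3.98-fold after LOC1 and 4.16-fold after LOC3. For the probe of the upstream variant, the listed log2 ratios were −2.03 after LOC1 and −1.03 after LOC3, and the blank cell for LPS, rebuilt from the intensities, was 0.74. This probe was therefore above the unchallenged level with LPS alone and under it with either strain, opposite to the 3′-end probe in the strain groups. The other Cdkn1a probe was 3.43-fold over with LPS, 1.74-fold with LOC1 (rebuilt) and 2.02-fold with LOC3.

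**Figure D3:**
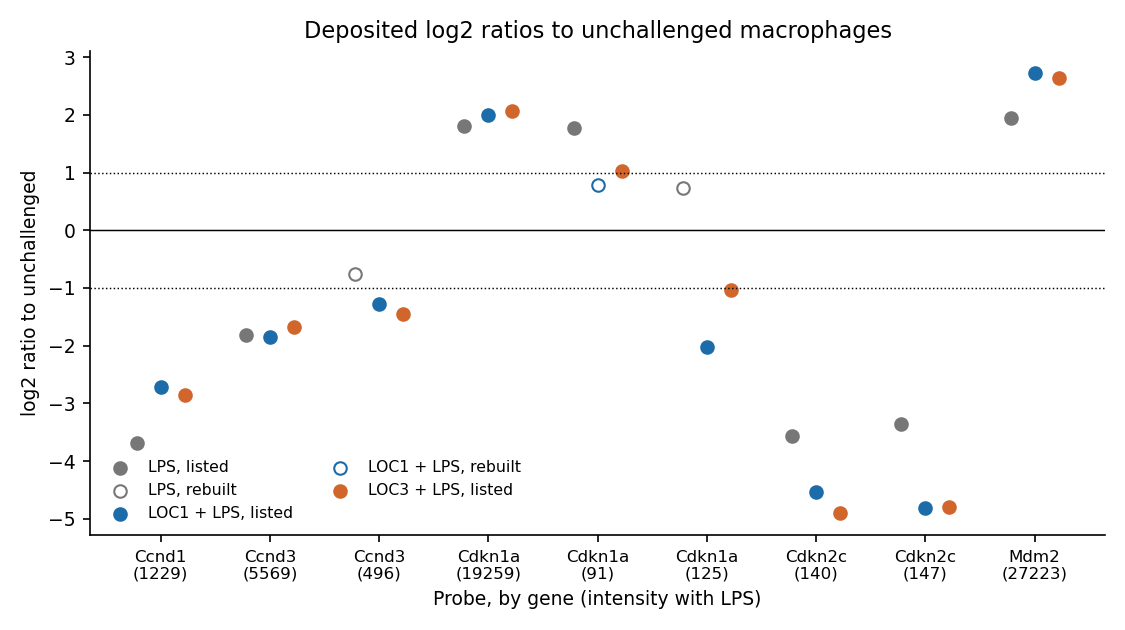
Deposited log2 ratio to unchallenged macrophages (vertical) for the 9 probes listed, 1 point per array in grey for LPS, blue for LOC1 and orange for LOC3. Filled points are listed values, open ones are blank cells rebuilt from the intensities, and the intensity with LPS stands in brackets. Ccnd1 lay at −3.68 with LPS and at −2.72 and −2.86 with the strains, and one Cdkn1a probe changed sign, from 0.74 to −2.03 and −1.03.

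Among the genes around these members, few of those that act in the same step of the cycle passed 2-fold. Of 19 genes for CDKs, cyclin E, the retinoblastoma family and E2F factors, 0 passed 2-fold with LOC1 and 1 fell with LOC3. The medians were −0.13 and −0.16. Over all genes, 2.49% were at least 2-fold higher and 3.81% lower with LOC1, and 2.98% higher and 3.18% lower with LOC3. The gene that fell was E2f7, a repressive E2F, at 199 with LPS alone, 121 after LOC1 and 88.9 after LOC3. Its other probe gave 0.24 and 0.35. The count with LOC3 was 0 with array medians as the scale, quantile normalization, normexp and the mean of probes. Of 10 other CDK inhibitors and genes of their turnover, 1 was higher with LOC1 and 0 with LOC3, beside 2.49% and 2.98% of all genes. The medians were −0.17 and −0.11. The higher gene was Fbxw7, the ubiquitin ligase subunit that directs Myc and cyclin E to degradation, at 638, 1213 and 1072, or 1.04 and 0.85 on the log2 scale. With LOC1 it sits on the 2-fold line, and the count was 0 with the percentile over detected probes and with normexp.

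In the Myc network, 0 of 10 genes passed 2-fold with either strain, with medians of 0.16 and 0.15. The largest mean differences there were those of Mxd1, a Max partner that opposes Myc, with 0.63 and 0.67, and Mycbp2, with 0.58 and 0.61. Mxd1 was listed at 4.03 on the log2 scale over unchallenged cells with LPS alone. Of 29 Myc targets of ribosome and nucleotide synthesis, 0 passed 2-fold or 1.5-fold with either strain, and the medians were −0.10 and −0.07, which became 0.12 and 0.12 with arrays scaled to their medians, so their side of 0 depends on the scaling. Polr1b, a subunit of RNA polymerase I, gave −0.49 and −0.50, and Cad, an enzyme of pyrimidine synthesis, gave −0.53 and −0.42. Their other probes differed in size, at −1.27 and −0.83 for Polr1b and −0.02 and −0.52 for Cad.

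Few genes of the p53 pathway passed 2-fold. Of 26 compared, 1 was higher and 1 lower with LOC1, beside 2.49% and 3.81% of all genes, and 2 were higher and 1 lower with LOC3, beside 2.98% and 3.18%, with medians of 0.06 and 0.15. With array medians as the scale the counts were 3 higher and 0 lower with each strain, and quantile normalization and normexp also left 0 lower. Plk2, a kinase induced by p53, read 1244 with LPS alone, 3980.4 after LOC1 and 3156 after LOC3, or 3.46-fold and 2.73-fold higher. Sesn1, the lower gene with each strain, read 249.9, 112 and 114, or 2.07-fold and 2.04-fold lower, and so is not past 2-fold under those 3 alternatives. Perp was not well above background with LPS or LOC1 and read 40.7 with LOC3, at least 2.68-fold higher than LPS. It was compared only because it was detected with LOC3, the array where it is high. With detection required on both arrays, or with scanner errors beside the fold, 1 gene was higher with LOC3.

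Of 10 FOXO genes and targets, 1 was higher with LOC1 and 2 with LOC3, beside 2.49% and 2.98% of all genes. The medians were 0.40 and 0.22. The count was 2 with LOC1 with array medians as the scale, and 0 with LOC3 with the mean of probes. Cited2 read 4939, 10583 and 10414, or 1.21 and 1.18. Bcl6, a repressor that lowers Ccnd2 in B cells, read 3691, 6191 and 8017, or 0.86 and 1.22, but its other probe gave −0.55 and −0.42.

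Part of the S and M phase transcripts read lower after the strains. Of 16 compared, 0 passed 2-fold with either strain, 8 were at least 1.5-fold lower with LOC1, beside 11.4% of all genes, and 9 with LOC3, beside 9.49%. The medians were −0.59 and −0.67, and −0.37 and −0.49 with arrays scaled to their medians. Ccnb1, the mitotic cyclin B, gave −0.96 and −0.92, and Rrm2, a subunit of ribonucleotide reductase, gave −0.85 and −0.99. Other members of the list, picked here after their values were seen, did not share this. Tyms, the thymidylate synthase, gave 0.59 and 0.62, at least 1.5-fold higher with both strains. The replication genes Pcna (0.21 and 0.07), Mcm2 (0.15 and −0.07), Mcm3 (−0.02 and −0.05) and Mcm6 (−0.05 and −0.14) lay near 0. The replication gene Mcm5 was lower with both strains, at −0.34 and −0.33. In a bulk culture, fewer cells in a phase and less RNA per cell cannot be told apart, and the part of either in the member values was not tested.

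**Figure D4:**
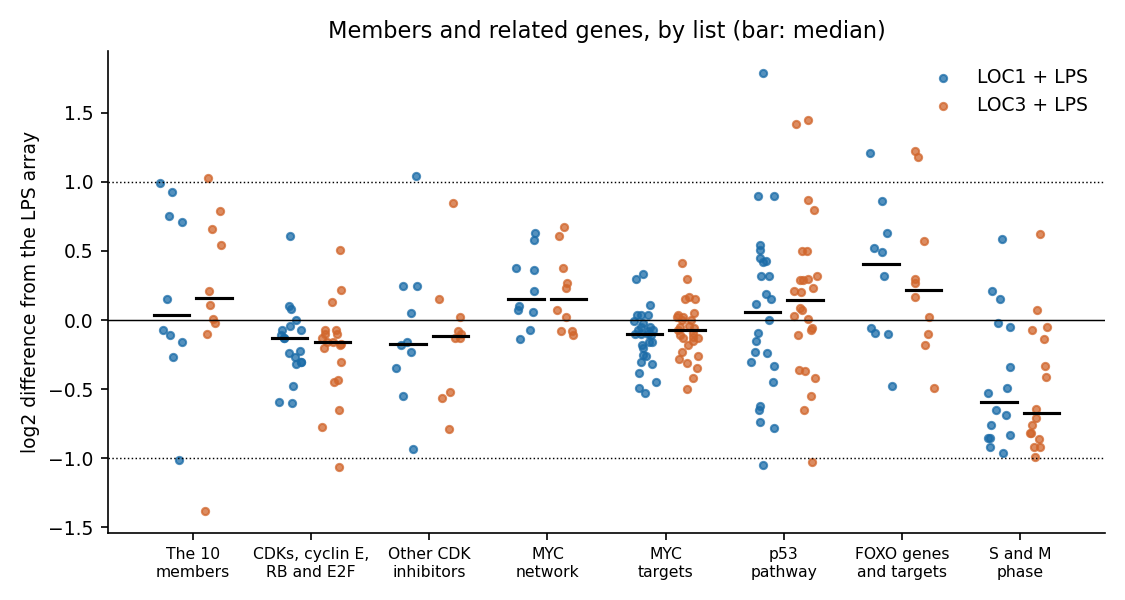
The log2 difference from the LPS array (vertical) for the 10 members and 7 related gene lists, 1 point per gene, blue for LOC1 and orange for LOC3, with a black bar at each median and dotted lines at 2-fold. The medians of the S and M phase genes lie at −0.59 and −0.67, and those of the other lists between −0.17 and 0.40.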

How the data were processed

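RNA from 1 sample per group was hybridised to 1-colour Agilent mouse arrays. The intensity of each spot was deposited by the authors as the scanner software gave it, background-subtracted and detrended, and not normalized across arrays. Deposited log2 ratios came from the authors' GeneSpring processing, against unchallenged cells, with cells under 2-fold blank. The submitters' processing notes also name limma and R 3.2.5. Differences between the deposited columns equal those of the scanner intensities after 1 constant per array, which settles scale and direction. That the reference is the unchallenged array comes from the study. Nothing gives the depth of an array beyond its 62976 spots.

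Here control spots and outlier-marked spots (135, 118 and 133) were left out, spots of 1 probe were averaged, and log2 intensities, each array divided by its 75th percentile, were compared at 2-fold and 1.5-fold. A gene was compared where its brightest probe was well above background on at least 1 array of the pair. A dim side was set to the lowest intensity well above background, or its own if higher. Blank cells were rebuilt from another array's ratio plus the intensity difference. Bright probes had a mean scaled level of −1 or more. Python 3.11.15, numpy 2.4.6, pandas 2.3.3, matplotlib 3.10.9, R 4.3.3 and limma 3.58.1 (normexp with an offset of 50) were used. The calling code was run on simulated arrays, with planted changes well past 2-fold in bright genes and no variation between cultures. That run therefore does not check changes near 2-fold or in dim genes. The t-test of the methods could not be run, since each group is 1 array.

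The members and lists were chosen with earlier results of these data known. The genes named were the 10 members with every probe, the genes of each list past 2-fold with either strain or, where there were none, the 2 with the largest mean difference, and Actb and Gapdh. Array gene names were kept, and 16 of 21 probe accessions matched RefSeq (GRCm38.p6), all 16 with the same symbol. Probe positions are mm9 and promoter windows GRCm38.p6, and coordinates were not converted.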

Additional observations from a re-analysis of the deposited data

How the results depend on the processing

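No paired analysis was possible because each group is 1 array. With LOC1, 1 of the 10 members passed 2-fold (Cdkn2c), against 2 with array medians as the scale (Ccnd1 and Ccng2, higher at 1.14 and 1.21), 0 with quantile normalization, 0 with normexp, 2 with the mean of all probes (Cdkn1a at −1.22 and Cdkn2c at −1.25), 0 at 3-fold, 5 at 1.5-fold and 0 of the 5 members with deposited ratios. With LOC3, 2 passed (Cdkn2c and Ccng2), against 1 with the percentile of detected probes, 0 with normexp, 1 with the mean of probes, 0 at 3-fold, 4 at 1.5-fold and 1 of those 5 members. Between strains the count stayed at 0 under all 12 alternatives. Over all genes, 1261 of 20019 passed with LOC1, 1218 of 19790 with LOC3 and 509 of 19382 between strains. Normexp gave 421, 410 and 153, no filter gave 3839, 3780 and 2814, 3-fold gave 410, 399 and 283, and 1.5-fold gave 3823, 3424 and 1121. Detection on both arrays gave 712 with LOC3 and 105 between strains, scanner errors beside the fold gave 285 between strains, and the deposited ratios gave 773 of only 4895 genes with LOC1 and 728 of 4912 with LOC3. Median scaling moved the median of all genes to 0.22 against LPS with either strain, and the share of higher calls from 39.6% to 65.2% with LOC1 and from 48.4% to 68.7% with LOC3. Quantile normalization gave 50.7% and 58.0%, normexp 50.6% and 61.5%, and 3-fold 63.9% with LOC3. Of the member differences under an alternative, 132 moved by less than the technical SD and 38 by more. Of those past 2-fold in the main setting, 0 changed sign, while 12 smaller ones did. Among these 12, Cdkn1a with LOC1 moved from 0.15 to −1.22 with the mean of probes, past 2-fold on the other side. Of the counts for related lists, 119 stayed within 1.5 times and 49 did not. Ccnd1 kept its direction, with 0.89 to 1.14 and 0.74 to 0.97, as did Myc with 0.50 to 0.92 and 0.36 to 0.72, Mdm2 with 0.68 to 0.97 and 0.54 to 0.85, Ccng2 with 0.92 to 1.21 and 0.82 to 1.21, and Cdkn2c with −1.25 to −0.58 and −1.42 to −0.77 (LOC1, then LOC3). The cause of these shifts was not tested. Dim probes, among them Cdkn2c and 2 of Cdkn1a, have the least signal over background.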
